A study of Sus scrofa with 16 samples.

Results

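A set of genes grouped under mechanical stress on cardiomyocytes was followed through left ventricle of young pigs after injury or sham surgery. The 10 genes were *ANKRD1*, *ANKRD2*, *XIRP1*, *XIRP2*, *CSRP3*, *FHL1*, *TNFRSF12A*, *KLF5*, *KY* and *RRAD*, taken by symbol from tables of 22629 genes, and all 10 were found, 9 by symbol and *XIRP1* by its Ensembl ID. *TNFRSF12A*, *KLF5* and *KY* were picked on their difference between ischemia/reperfusion (IR) and sham pigs in the scar zone, so their values in that contrast, and in any contrast that uses the IR scar zone samples, are given as a description with no test. The other 7 genes were listed as stress genes with earlier results of these data known.

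Cardiomyocytes sense load at the Z-disc, at the titin spring of the I-band and at the intercalated disc, where cells are joined end to end. Proteins with LIM domains, ankyrin repeats or Xin repeats sit at these sites, some of them also enter the nucleus, and their transcripts are widely used as markers of stretch and of remodelling after injury. Receptors, transcription factors and regulators of calcium entry link the same load to cell growth and to the strength of contraction.

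RNA was sequenced from 16 samples of 8 White Yorkshire-Landrace pigs, 4 IR and 4 sham-operated, each group with 2 females and 2 males. In IR pigs the left anterior descending artery was snared for 1 h at about a month of age and then reperfused, in sham pigs the suture was placed and not tightened, and hearts were collected 4 weeks later. Each pig gave 1 piece below the occlusion site, called the scar zone also in sham pigs, where the artery was sutured but not snared, and 1 piece of adjacent ventricle, the border zone. The IR scar zone piece held scar together with neighbouring myocardium, so fewer cardiomyocytes and less RNA per cardiomyocyte cannot be told apart in these bulk samples. Female pigs were numbers 2 and 14 (IR) and 4 and 5 (sham), and male pigs were 9 and 11 (IR) and 12 and 13 (sham).

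Library totals were 15427663 to 49045206 estimated counts, and no pair of samples held identical values. Of 12 cardiomyocyte markers 10 were found, and their summed TPM (abundance scaled for transcript length and library depth) was 65408 to 79814 in the IR scar zone and 71277 to 81512 in the sham scar zone. In the border zone it was 79789 to 90736 in IR and 75398 to 92448 in sham pigs. The 8 fibroblast markers summed to 1351 to 9982 TPM in the IR scar zone against 1717 to 2364 in the sham scar zone, with IR pigs 9 (9769 TPM) and 11 (9982 TPM) far above pigs 2 (1722 TPM) and 14 (1351 TPM). Of 12 fast skeletal muscle markers 10 were found, and the group medians of *MYH4* were at or near 0 and those of *MYLPF* at 0 TPM, while *CKM*, which the heart also makes, carried most of that sum.

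The 10 genes differed widely in level. By median TPM over the 16 samples, *CSRP3* (2032) and *ANKRD1* (1803) were highest, *FHL1* (235), *RRAD* (164), *XIRP1* (141) and *TNFRSF12A* (83.3) lay between, and *XIRP2* (13.8), *KY* (1.65), *ANKRD2* (1.28) and *KLF5* (0.239) were lowest. The ranges of neighbours in this order overlapped, except that the lowest *ANKRD1* value, 1146 TPM, was above the highest *FHL1* value, 703 TPM. *KLF5* rested on 4 to 295 estimated counts per sample, *ANKRD2* on 26.0 to 441 and *KY* on 66 to 600, so counting error weighs more on these 3 genes than on *ANKRD1*, with 35377 to 310524.

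**Figure D1:**
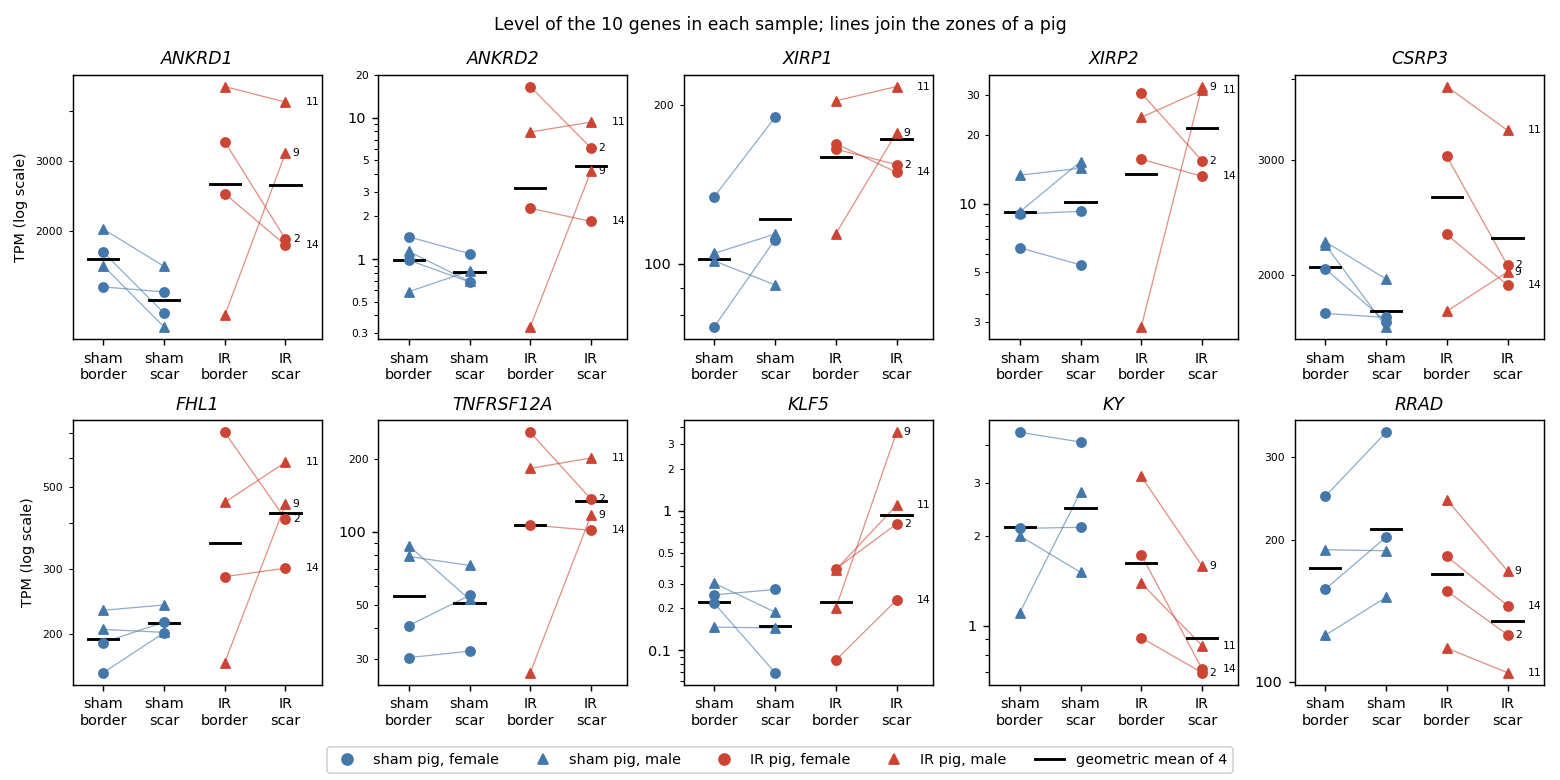
Level of each gene in TPM on a log axis in sham border, sham scar, IR border and IR scar samples, with 1 point per sample, lines joining the zones of a pig, circles for females and triangles for males, numbers naming the IR pigs, and bars at the geometric mean of 4. *ANKRD2*, *FHL1* and *TNFRSF12A* lay higher in all 4 IR scar samples than in all 4 sham scar samples, and *KY* was lower in 3 of 4, with pig 9 at 1.58 TPM just above sham pig 13 at 1.51 TPM, while 1 IR border sample, that of pig 9, lay among or below the sham values for most genes.

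Injured scar zone tissue was compared with the same site in sham pigs to find which stress genes differed 4 weeks after ischemia. Most of the 7 genes not picked on this contrast were higher in IR pigs, led by *ANKRD2*, while *RRAD* was lower. Values of *XIRP1*, *XIRP2*, *CSRP3* and *RRAD* overlapped between the groups, and *XIRP1* and *CSRP3* did not pass the unadjusted p. In edgeR's quasi-likelihood test, with a Benjamini-Hochberg adjusted p of 0.05 or less and a fold change of 2 or more as the threshold, 0 of the 7 genes and 0 of all 14023 genes tested were called, and the smallest adjusted p of any gene was 0.414. At an unadjusted p of at most 0.05, 5 of the 7 passed, beside 11.2% of all genes, and with the fold change as well 1 of 7 passed (*ANKRD2*), beside 3.35%. DESeq2, at its adjusted p and the same fold change, called 1 of the 7, again *ANKRD2*, beside 0.372% of genes. IR and sham values did not overlap for 3 of the 7 (*ANKRD1*, *ANKRD2* and *FHL1*), beside 4.87% of genes. The median log2 fold change of the 7 was 0.80 and that of all genes 0.03.

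The same comparison in the border zone used other samples than the contrast on which 3 genes were picked, though from the same pigs. Here 0 of the 10 genes and 0 of 13728 tested were called by edgeR at the adjusted p, and 0 of the 10 by DESeq2, beside 0.0146% of genes. By unadjusted p 3 of 10 passed (*ANKRD2*, *XIRP1* and *FHL1*), beside 3.78% of all genes, and 2 of 10 with the fold change (*ANKRD2* and *FHL1*), beside 0.794%. IR and sham values overlapped for all 10, while 2.05% of genes did not overlap. The median log2 fold change was 0.71 over the 10 genes and 0.00 over all genes. Leaving out pig 9 raised the 2 genes past the unadjusted p and the fold change to 5 (*TNFRSF12A*, *ANKRD1*, *ANKRD2*, *XIRP2* and *FHL1*), and leaving out pig 2 lowered them to 0. Under limma 0 of the 10 passed both on log2(TPM + 1) and on log2(TPM + 0.1), beside 32 and 54 of all genes.

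**Figure D2:**
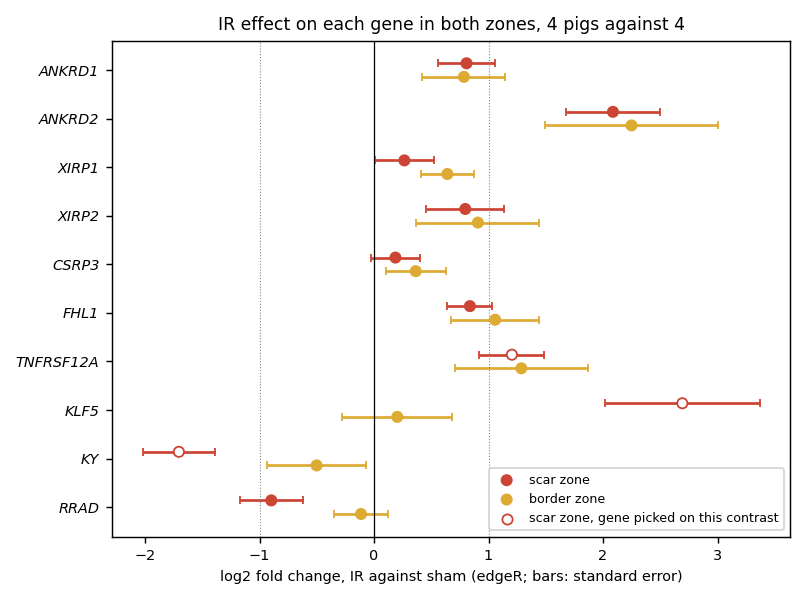
Log2 fold change of each gene, IR against sham, in the scar zone (red) and the border zone (yellow), from edgeR with bars for the standard error, 4 pigs against 4. Open circles mark genes picked on the scar zone contrast. *ANKRD2* stood at 2.09 and 2.25, and *KLF5* and *KY* had border zone values of 0.20 and -0.50 beside 2.69 and -1.70 in the scar zone.

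The ankyrin repeat proteins come first. *ANKRD1* encodes the cardiac ankyrin repeat protein, which binds titin in the I-band and acts as a transcriptional cofactor in the nucleus. In the scar zone it was at 2739.6, 3014, 5304 and 2812 CPM (estimated counts scaled to library size with TMM factors) in IR pigs 2, 9, 11 and 14. Sham pigs 4, 5, 12 and 13 had 1607, 2163, 1667 and 2494 CPM. All 4 IR pigs lay above all 4 sham pigs, with pig 11 standing well above the rest. The log2 fold change was 0.81 (SE 0.25), with an unadjusted p of 0.0100 and an adjusted p of 0.438 in edgeR, and the two-sided exact permutation p was 0.0286, the smallest that 4 pigs against 4 allow. It fell to 0.53 on the log2 scale when pig 11 was left out. Border samples of IR pigs 2, 11 and 14, at 4709, 7199.6 and 3528 CPM, were above all sham pigs, which ranged from 2118 to 2885, but pig 9, at 1617 CPM, was below them. This gave a log2 fold change of 0.78 (SE 0.36), with an unadjusted edgeR p of 0.0548 and an adjusted p of 0.988. It was 0.40 without pig 11 and 1.06 without pig 9, the latter with an unadjusted edgeR p of 0.00129 and an adjusted p of 0.594.

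*ANKRD2* encodes a relative of the same protein, best known from slow skeletal muscle, that also binds titin. It was scarce, yet it had the largest fold change of the 7 genes in the scar zone. IR pigs 2, 9, 11 and 14 were at 8.60, 4.07, 10.03 and 2.99 CPM. Sham pigs 4, 5, 12 and 13 were at 1.18, 2.04, 1.26 and 1.58 CPM, all below the lowest IR pig. The log2 fold change was 2.09 (SE 0.41), or 4.25-fold, with an unadjusted edgeR p of 0.000547 and an adjusted p of 0.438, against an adjusted p of 0.000938 in DESeq2 and an exact permutation p of 0.0286. Leaving out each pig in turn kept the log2 fold change between 1.79 and 2.31. Border samples of pigs 2, 11 and 14 had 19.1, 10.2 and 3.33 CPM, above the sham range of 1.15 to 2.23, and pig 9 had 0.799 CPM, below it. Their log2 fold change of 2.25 (SE 0.76) came with an unadjusted edgeR p of 0.0137, an adjusted p of 0.988 and an exact permutation p of 0.229, and it was 1.45 without pig 2.

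*XIRP1* and *XIRP2* encode Xin repeat proteins that bind actin and are found at the intercalated disc. For *XIRP1*, scar zone values of 702, 545, 879 and 725 CPM in IR pigs 2, 9, 11 and 14 lay within the sham range, whose pigs 4, 5, 12 and 13 had 478, 935, 410 and 552 CPM. Sham pig 5 was the highest of all 8. The scar zone log2 fold change was 0.26 (SE 0.26), with an adjusted edgeR p of 0.668 and an exact permutation p of 0.371. This value rested on sham pig 5, without which it was 0.57 (SE 0.19), with an unadjusted edgeR p of 0.0166 and an adjusted p of 0.782, and it was 0.11 without sham pig 12. Sham border samples had 388 to 627 CPM and those of IR pigs 2, 11 and 14 had 748, 1026 and 763 CPM, all higher, with pig 9 at 480 CPM inside the sham range. That difference had a log2 fold change of 0.64 (SE 0.23), an unadjusted edgeR p of 0.0205, an adjusted p of 0.988 and an exact permutation p of 0.0571, and it ranged from 0.45 without pig 11 to 0.81 without pig 9.

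*XIRP2* was at 146, 218, 271 and 141 CPM in the scar zone of IR pigs 2, 9, 11 and 14. Sham pigs 4, 5, 12 and 13 had 50.3, 101, 141 and 155 CPM, so pigs 9 and 11 lay above all sham pigs and pigs 2 and 14 within their range. The log2 fold change was 0.80 (SE 0.34), with an unadjusted edgeR p of 0.0423, an adjusted p of 0.438 and an exact permutation p of 0.114. It ranged from 0.55 without sham pig 4 to 0.99 without sham pig 13. Without pig 4, 5, 9 or 11 the unadjusted edgeR p of *XIRP2* was 0.0673, 0.0905, 0.0824 or 0.116. Its border samples spread widely among IR pigs, from 25.3 CPM in pig 9 to 152, 248 and 272 CPM in pigs 14, 11 and 2, around a sham range of 70.9 to 122. There the log2 fold change was 0.91 (SE 0.54), with an unadjusted edgeR p of 0.122 and an adjusted p of 0.988, and it was 0.60 without pig 2 and 1.27 without pig 9.

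Next are the LIM domain proteins. *CSRP3* encodes muscle LIM protein, a Z-disc partner of telethonin and alpha-actinin. Scar samples of IR pigs 2, 9, 11 and 14 had 726, 472, 1029 and 711 CPM and sham pigs 4, 5, 12 and 13 had 584, 681, 596 and 725 CPM. Pig 9 was the lowest of the 8 and pig 11 the highest, and the other IR pigs were close to the sham range. The log2 fold change was 0.19 (SE 0.22) in the scar zone, with an adjusted edgeR p of 0.722, and an exact permutation p of 0.629, and it turned to -0.02 without pig 11. Border samples of IR pigs 2, 9, 11 and 14 had 1064, 551, 1489 and 797 CPM, against a sham range of 660 to 864, with pigs 2 and 11 above it, pig 9 below it and pig 14 inside it. That difference was 0.36 on the log2 scale (SE 0.26), with an adjusted edgeR p of 0.988 and an exact permutation p of 0.429. It fell to 0.08 without pig 11 and rose to 0.56 without pig 9.

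*FHL1*, whose LIM protein binds the titin spring in the I-band and takes part in stretch signalling, was at 843, 602, 1057 and 644 CPM in the scar zone of IR pigs 2, 9, 11 and 14. Sham pigs 4, 5, 12 and 13 had 385, 477, 398 and 503 CPM, so the groups did not overlap. The log2 fold change was 0.84 (SE 0.20), with an unadjusted edgeR p of 0.00185, an adjusted p of 0.438 and an exact permutation p of 0.0286. DESeq2 gave it an adjusted p of 0.0194, with a log2 fold change of 0.83, under the fold change threshold. Border samples of pigs 2, 11 and 14 had 1425, 1016 and 570 CPM, above the sham range of 352 to 457, and pig 9 had 303 CPM, below it. The fitted difference there was 1.06 on the log2 scale (SE 0.39), with an unadjusted edgeR p of 0.0202, an adjusted p of 0.988 and an exact permutation p of 0.200, and it was 0.65 without pig 2.

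Among the 3 picked genes, *TNFRSF12A* encodes the receptor for the cytokine TWEAK, and cardiomyocytes and stromal cells make more of it after injury or growth factors. Scar samples of IR pigs 2, 9, 11 and 14 had 100.03, 57.6, 131 and 78.9 CPM. Sham pigs 4, 5, 12 and 13 had 38.5, 26.1, 38.7 and 56.4 CPM. By CPM the gap between the groups was narrow, 57.6 in IR pig 9 against 56.4 in sham pig 13. By TPM it was wider, 101 in IR pig 14 against 72.6 in sham pig 13. The fitted log2 fold change of *TNFRSF12A* was 1.20 (SE 0.28), the smallest in size of the 3 picked genes. Border tissue was not used to pick it, and there pigs 2, 11 and 14 had 187, 147 and 77.4 CPM, all above the sham range of 23.3 to 61.1, and pig 9 had 17.6 CPM, below it. The border zone log2 fold change was 1.29 (SE 0.58), with an unadjusted edgeR p of 0.0501, an adjusted p of 0.988 and an exact permutation p of 0.314. Without pig 9 it was 1.64 (SE 0.36), with an unadjusted edgeR p of 0.00137 and an adjusted p of 0.614, and without pig 2 it was 0.86 (SE 0.58), with an unadjusted p of 0.169 and an adjusted p of 0.787.

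*KLF5* encodes a zinc finger transcription factor of the Krüppel-like family that acts in cardiomyocytes, smooth muscle cells and fibroblasts. It was the least abundant of the 10. Scar samples of IR pigs 2, 9, 11 and 14 had 2.24, 6.86, 2.71 and 0.679 CPM, and sham pigs 4, 5, 12 and 13 had 0.182, 0.823, 0.398 and 0.555 CPM. Pigs 2, 9 and 11 were above all sham pigs and pig 14 was below sham pig 5. The fitted log2 fold change was 2.69 (SE 0.67), and 1.94 (SE 0.58) without pig 9. Border values of the groups overlapped, 0.234 to 1.16 CPM in IR and 0.389 to 0.842 CPM in sham pigs. The border zone log2 fold change was 0.20 (SE 0.48), with an unadjusted edgeR p of 0.682, an adjusted p of 0.993 and an exact permutation p of 0.971. Pigs 9 and 11, the highest in *KLF5*, also had the highest fibroblast marker sums of the IR scar samples and smooth muscle marker sums of 622 and 638 TPM, against 214 to 396 TPM in sham scar samples; the part of these cells in the *KLF5* values was not tested.

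*KY* encodes kyphoscoliosis peptidase, a muscle protein tied to the Z-disc through filamin C and needed for muscle upkeep. It was lower in IR scar tissue. IR pigs 2, 9, 11 and 14 had 4.07, 6.26, 4.47 and 4.48 CPM in the scar zone, and sham pigs 4, 5, 12 and 13 had 11.8, 26.0, 16.2 and 9.39 CPM. By CPM every IR pig was below every sham pig, the IR values were close together, and the fitted log2 fold change was -1.70 (SE 0.31). By TPM the IR values ran from 0.696 to 1.58, and pig 9, at 1.58, was just above sham pig 13, at 1.51. Border samples of IR pigs had 5.31 to 17.1 CPM and those of sham pigs 6.17 to 26.6 CPM, with pig 2 alone below all sham pigs. The border zone log2 fold change was -0.50 (SE 0.43), with an unadjusted edgeR p of 0.274, an adjusted p of 0.988 and an exact permutation p of 0.486. It was -0.03 without sham pig 5 and -0.85 without IR pig 9.

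*RRAD* encodes a small GTPase that restrains L-type calcium channels through their beta subunits. It was lower in the IR scar zone, at 238, 219, 175 and 292 CPM in pigs 2, 9, 11 and 14, against 364, 696, 283 and 379.5 CPM in sham pigs 4, 5, 12 and 13. Pigs 2, 9 and 11 lay below all sham pigs, and pig 14 lay above sham pig 12. The log2 fold change was -0.90 (SE 0.28), with an unadjusted edgeR p of 0.00939, an adjusted p of 0.438 and an exact permutation p of 0.0571. It ranged from -1.06 without sham pig 12 to -0.57 without sham pig 5. Border ranges were 245 to 423 CPM in IR and 226 to 483 CPM in sham pigs, and the log2 fold change was -0.11 (SE 0.24), with an adjusted edgeR p of 0.993.

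The border zone of IR pig 9 stood apart from those of the other IR pigs. It was the lowest of the 8 border samples for 6 of the 10 genes (*ANKRD1*, *ANKRD2*, *XIRP2*, *CSRP3*, *FHL1* and *TNFRSF12A*). Pigs 2 and 11 were each the highest of the 8 for 4 genes. In its own scar zone pig 9 was higher than in its border zone by 3.10 on the log2 CPM scale for *XIRP2*, 2.24 for *ANKRD2*, 1.71 for *TNFRSF12A*, 0.99 for *FHL1* and 0.90 for *ANKRD1*, and the difference for *CSRP3* was -0.22. The smooth muscle markers of its border sample summed to 144 TPM, the lowest of the 16 samples. Its red cell markers summed to 904 TPM, the highest of the 16, where the next was 484 TPM in its own scar sample, and its leucocyte markers to 63.7 TPM, the highest of the 8 border samples. The part of cell makeup in these values was not tested.

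**Figure D3:**
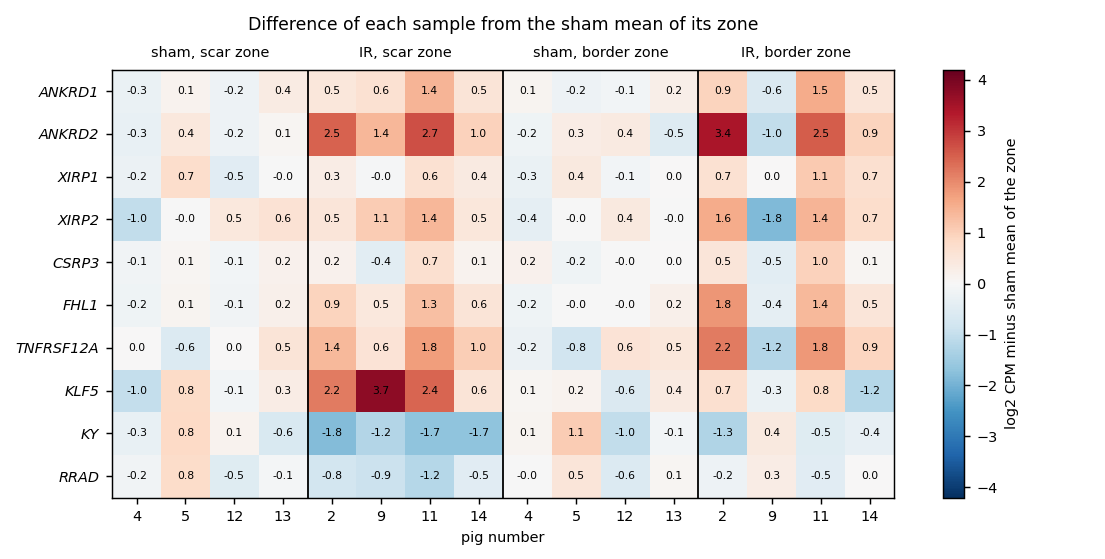
Log2 CPM of each gene in each of the 16 samples minus the mean of the 4 sham samples of that zone, with red for higher and blue for lower, columns for pigs and rows for genes. In the IR scar zone *ANKRD2* ran from 1.0 to 2.7 above the sham mean and *KY* from 1.2 to 1.8 below it, and in the IR border zone pig 9 was below the sham mean for *XIRP2*, *TNFRSF12A* and *ANKRD2* where pigs 2, 11 and 14 were above.

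Whether the IR effect differed between zones was asked in a single fit of all 16 samples. For the 7 genes not picked, 0 passed the unadjusted p and the fold change, beside 1.37% of 14278 genes, and 0 passed the adjusted threshold in edgeR or DESeq2. The estimates for *ANKRD1*, *ANKRD2*, *XIRP1*, *XIRP2*, *CSRP3* and *FHL1* lay between -0.36 and 0.04 on the log2 scale, with standard errors of 0.36 to 0.93. With the pig as a block they lay between -0.28 and 0.35, with standard errors of 0.16 to 0.71 and unadjusted edgeR p-values of 0.105 to 0.968. *RRAD* had the estimate farthest from 0 among the 7, at -0.78 (SE 0.39), with an unadjusted edgeR p of 0.0619 and an adjusted p of 1.00, and in the fit with pigs as a replicate block it was -0.74 (SE 0.17), an unadjusted p of 0.00160 and an adjusted p of 0.702. As a description, *KLF5* had 2.50 (SE 0.87), which was 1.58 without pig 9, and *KY* had -1.20 (SE 0.59).

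Zones of the same heart were then compared. Counts are from a fit of group means that did not pair the zones of a pig. In IR pigs 0 of the 7 genes passed the unadjusted p and the fold change between scar and border zone, beside 2.32% of genes. In sham pigs 0 of 7 passed, beside 0.105%. At the adjusted p 0 of 7 were called in either by edgeR or DESeq2, where DESeq2 called 0.169% of genes in IR pigs. With the pig as a block, *RRAD* had -0.48 (SE 0.12) in IR pigs, with an unadjusted edgeR p of 0.00270 and an adjusted p of 0.153. *CSRP3* had -0.36 (SE 0.12) there, with an unadjusted edgeR p of 0.0108 and an adjusted p of 0.196. The rest of the 7 had unadjusted edgeR p-values of 0.410 to 0.746. *RRAD* was lower in the scar zone than in the border zone of each of the 4 IR pigs, with a mean difference of -0.49 ± 0.32 log2 CPM (SD, n = 4), and higher in the scar zone of each of the 4 sham pigs, at 0.26 ± 0.21 (SD, n = 4). *KLF5*, which was picked for its scar zone level, was higher in the scar zone of all 4 IR pigs, by 1.76 ± 1.20 log2 CPM (SD, n = 4), from 1.02 in pig 2 to 3.55 in pig 9. *KLF5* differed between zones in sham pigs by -0.47 ± 0.78 (SD, n = 4), with 2 pigs higher and 2 lower. *KY*, picked likewise, was lower in the scar zone of all 4 IR pigs, at -0.99 ± 0.45 log2 CPM (SD, n = 4), against 0.20 ± 0.79 (SD, n = 4) in sham pigs, where pig 12 alone was higher. *CSRP3* was lower in the scar zone of all 4 IR pigs, at -0.37 ± 0.20 (SD, n = 4), and of 3 of 4 sham pigs.

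Females and males were compared because each group held 2 of each. Library totals were 33521418 to 49045206 estimated counts in IR males and 15427663 to 21166014 in IR females. Sham males had 19701606 to 27088652 and sham females 20140583 to 23926151. The part of this depth in the sex differences was not tested. In the scar zone the IR minus sham difference of mean log2 CPM had the same sign in both sexes for all 7 genes, and in the border zone for 5 of 10. The share of all genes with the same sign was not measured, so these counts have no background. Some scar zone values were near 0, such as 0.09 for *XIRP1* in females and 0.08 for *CSRP3* in males. The edgeR test of the sex difference passed the unadjusted p and the fold change for 0 of 7 genes in the scar zone, beside 9.16% of genes, and for 1 of 10 in the border zone, beside 4.22%. That gene was *KY*, whose IR minus sham difference in the border zone was -1.39 log2 CPM in females and 0.54 in males, a fitted difference of 1.94 (SE 0.68) with an unadjusted p of 0.0203 and an adjusted p of 0.651. At the adjusted p, edgeR called 0 of the 7 in the scar zone, beside 1.33% of genes, and DESeq2 0 of 7, beside 5%. The genes behind that edgeR share, 195 in all, fell to 1 without sham pig 12 or 13. In the border zone edgeR called 0 of the 10, beside 0.014%, and DESeq2 0 of 10, beside 0.316%. With 2 pigs per sex and surgery, *ANKRD2* was higher in IR scar tissue by 1.66 log2 CPM in females and 2.12 in males, and *RRAD* differed by -0.93 in females and -0.74 in males.

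Other genes of the same structures were scored beside the 10. Of 34 Z-disc and I-band genes, 31 were tested, and 0 passed the unadjusted p and the fold change in either zone, with a median log2 fold change of 0.12 for scar and 0.20 for border tissue, beside 0.03 and 0.00 for all genes. Values were above 0 for 19 of the 31 in the scar zone and 27 of the 31 in the border zone. In the scar zone 3 of the 31 passed the unadjusted p alone, beside 11.2% of all genes, and in the border zone 2 of the 31, beside 3.78%. Those of the scar zone were *MYOT* (myotilin) at 0.58 (SE 0.17), *FLNC* (filamin C, the partner of the *KY* product) at 0.43 (SE 0.19) and *CMYA5* (myospryn) at -0.48 (SE 0.21), and those of the border zone were *FLNC* at 0.66 (SE 0.23) and *MYPN* (myopalladin) at 0.42 (SE 0.18). In the scar zone the largest value after *MYOT* was that of the calpain *CAPN3*, 0.55 (SE 0.32), which did not pass.

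Relatives and partners of the 10 genes were scored next. Of 23, 22 were tested, 0 passed with the fold change in either zone, and the median was -0.18 for scar and -0.11 for border tissue. By the unadjusted p alone 5 of the 22 passed in the scar zone, beside 11.2% of all genes. *CSRP2*, a LIM relative of *CSRP3*, had a log2 fold change of 0.85 (SE 0.35), and *GEM*, a GTPase of the *RRAD* family, had 0.74 (SE 0.32), opposite in sign to *RRAD*. *CACNB2*, a calcium channel beta subunit, had -0.57 (SE 0.25), and *KLF15*, a relative of *KLF5*, had -0.59 (SE 0.25). *TNFSF12*, the ligand of the *TNFRSF12A* receptor, had -0.26 (SE 0.11), opposite in sign to its receptor. In border tissue 1 of the 22 passed, *KLF2*, at -0.55 (SE 0.24), beside 3.78% of all genes.

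Stretch and load responsive genes held the largest values. Of 37, 31 were tested, and 6 were past the unadjusted p and the fold change in the scar zone, beside 3.35% of all genes, all higher in IR pigs, with a list median of 0.26 beside 0.03 for all genes. The natriuretic peptides *NPPB* and *NPPA*, made by strained cardiomyocytes, had log2 fold changes of 3.33 (SE 1.04) and 3.02 (SE 1.09). The study measured both by RT-qPCR, a PCR measure of RNA, and reported no differences between sham and IR hearts. The immediate-early factors *FOS* and *EGR1* had 3.49 (SE 1.14) and 1.75 (SE 0.72), the matrix protein gene *TNC* (tenascin C) had 3.48 (SE 0.95) and the cytokine gene *LIF* had 1.48 (SE 0.49). By the unadjusted p alone 10 of the 31 passed in the scar zone, beside 11.2% of all genes. The others were *CTGF* at 0.96 (SE 0.37), *RCAN1* at 0.87 (SE 0.28), *HBEGF* at 0.80 (SE 0.31) and *MYOCD*, lower in IR pigs, at -0.48 (SE 0.20). In the border zone 0 of 31 passed even the unadjusted p, with a median of 0.14. None of the genes in these 3 lists passed the adjusted threshold between IR and sham pigs in either zone, in edgeR or DESeq2.

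Some of these genes had a scar zone IR effect that differed between the sexes. Of 33 stretch and load responsive genes tested for that difference, 6 passed the unadjusted p and the fold change, beside 9.16% of all genes, all with a larger value in males, with a list median of 0.66 beside 0.00. At the adjusted p edgeR called 1 of them, *TNC*, beside 1.33% of all genes, and DESeq2 called 4, beside 5%, which were *TNC*, *FOS*, *HMOX1* (heme oxygenase) and *IL33* (an alarmin cytokine). *TNC* was 0.03 log2 CPM higher in IR than sham females and 4.74 higher in IR than sham males, a fitted difference of 4.69 (SE 0.48) with an adjusted edgeR p of 0.0134. With each pig left out in turn it stayed between 4.33 and 5.15, and it was called in 5 of the 8 refits, not without pig 12, 13 or 14. *FOS* was higher by 0.43 in females and 4.78 in males, with an adjusted p of 0.0969 in edgeR and 0.0220 in DESeq2. Among relatives and partners, edgeR called 0 of 22, beside 1.33% of all genes, and DESeq2 3, beside 5%, which were *CSRP2*, *GEM* and *PPARA* (a nuclear receptor of fatty acid use), with *CSRP2* at -0.11 log2 CPM in females and 1.44 in males and *GEM* at -0.10 and 1.43. The Z-disc gene *PDLIM3* was called by both tools, at 1.26 log2 CPM in females and -1.25 in males, a fitted difference of -2.59 (SE 0.38) with an adjusted edgeR p of 0.0279. With a pig left out it ran from -2.94 to -2.15, and edgeR called it in 1 of the 8 refits, that without pig 11. It was the only one of 31 Z-disc and I-band genes called for the scar zone by edgeR or DESeq2. Fibroblast markers differed in the same contrast, with 6 of 8 called by edgeR, beside 1.33% of all genes, and a median of 2.24, and their summed TPM stood high in the 2 IR males, pigs 9 and 11, alone. Their part in these values was not tested, nor was that of the larger library totals of the IR males.

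**Figure D4:**
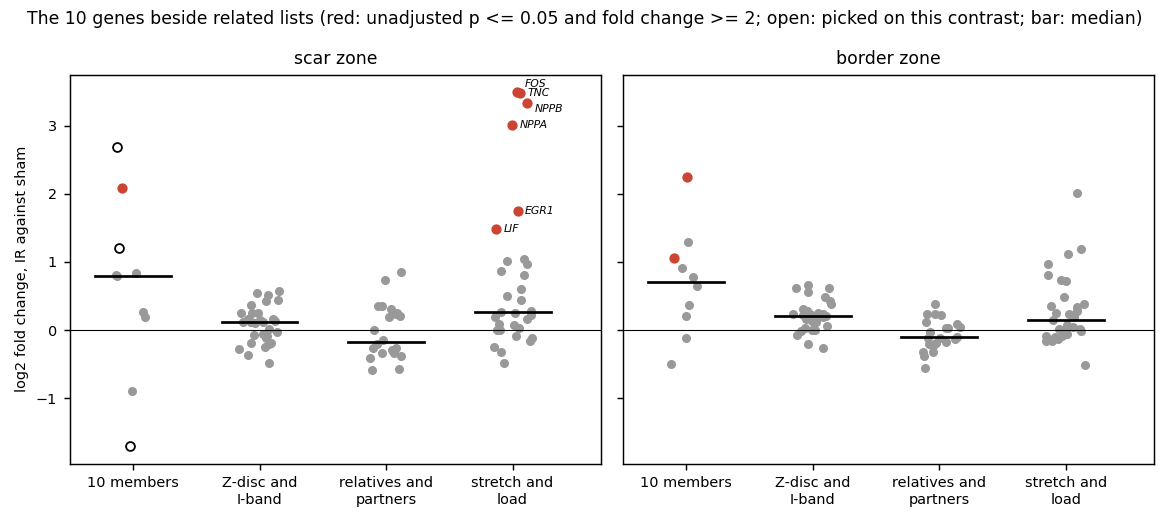
Log2 fold change, IR against sham, of the 10 genes and of the genes of 3 related lists in the scar zone (left) and border zone (right), 1 point per gene; red marks an unadjusted p of 0.05 or less with a fold change of 2 or more, open circles the genes picked on the scar zone contrast, and bars the median (in the scar zone, for the first column, of the 7 genes not picked). The medians in the first column lay above those of the 3 lists in both zones, and the named red points in the lists were all stretch and load responsive genes of the scar zone.

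How alike the 10 genes were was described over the 16 samples, which come from 8 pigs and share surgery and zone. *FHL1* and *ANKRD2* were closest, with a Pearson r of 0.96 in log2 CPM, and 0.94 once the mean of each group was taken out. *FHL1* and *TNFRSF12A* had an r of 0.91, *CSRP3* and *ANKRD1* 0.84, and *KY* and *RRAD* 0.82. With group means taken out these were 0.88, 0.89 and 0.69. *KY* ran opposite to *TNFRSF12A*, with an r of -0.81, and -0.80 with group means taken out. Both were picked on the scar zone contrast, where they differed in opposite directions. *KLF5* was the least tied to the rest, with no r above 0.56.

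**Figure D5:**
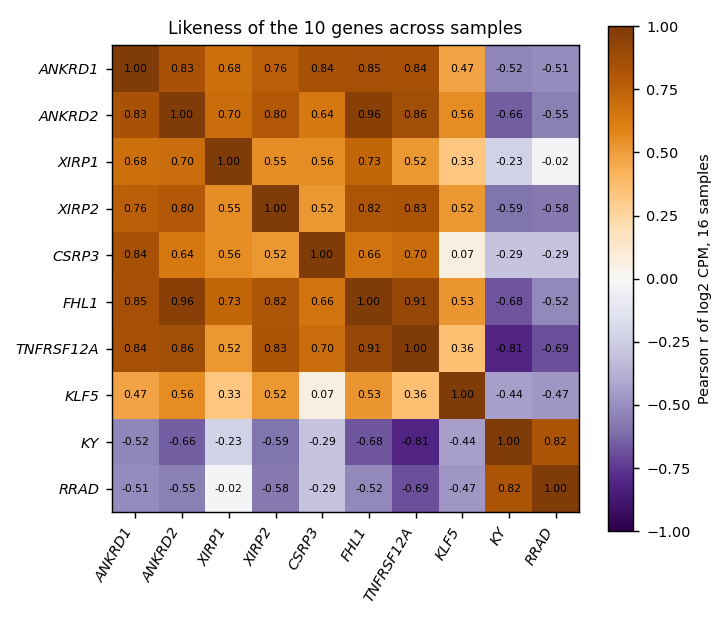
Pearson r of log2 CPM between each pair of the 10 genes over 16 samples of 8 pigs, with orange for like and purple for opposite patterns. *ANKRD1*, *ANKRD2*, *FHL1*, *XIRP2* and *TNFRSF12A* formed a block with r from 0.76 to 0.96, and *KY* and *RRAD* ran opposite to it, with r from -0.81 to -0.51. With group means taken out, which is not drawn, the block had r from 0.76 to 0.94. *KY* and *RRAD* then had r from -0.80 to -0.33 with the block.

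Among 11891 genes with a mean of at least 1 CPM, the most alike to each of the 10 were listed by the same measure. For *TNFRSF12A* they were *FSTL3* (0.98), *HOOK2* (0.97) and *ESM1* (0.94). For *ANKRD2* they were *FHL1* (0.96), the intermediate filament gene *DES* (0.93) and *LIN37* (0.92), and for *FHL1* they were *ANKRD2* (0.96), *CNN1* (0.94) and *HOOK2* (0.93). *CNN1*, calponin, is a smooth muscle marker, and its log2 fold change was 1.17 (SE 0.43) for scar and 1.85 (SE 0.73) for border tissue. The other smooth muscle markers, *MYH11*, *ACTA2* and *TAGLN*, had -0.05 (SE 0.43), 0.12 (SE 0.30) and 0.47 (SE 0.31) for scar and -0.19 (SE 0.26), -0.19 (SE 0.22) and -0.03 (SE 0.22) for border tissue, none past the unadjusted p; whether smooth muscle had a part in the *FHL1* values was not tested. *ANKRD1* was closest to *RNF115*, *RNF128* and *ENAH* (0.91 to 0.92), *XIRP1* to *FAM53C*, *ETS2* and *FLNC* (0.86 to 0.91), and *XIRP2* to *DUSP13*, *TGFB2* and *C12orf75* (0.88 to 0.91). *CSRP3* was closest to *CAP2*, *PSMA2* and *MGST3* (0.91 to 0.94), *KY* to *H1F0*, *NDUFAF7* and *PARP1* (0.91 to 0.93), and *RRAD* to *AKR7A2*, *TMEM266* and *FAM124A* (0.90 to 0.92). *KLF5* was closest to the urokinase receptor gene *PLAUR*, *CLEC11A* and the matrix gene *FMOD* (all 0.87), and without the scar sample of pig 9 these were 0.76 to 0.78.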

How the data were processed

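The authors deposited estimated counts from Kallisto, which are sums of partly assigned reads, and TPM, in which these estimates are corrected for the length of transcripts and for depth. The submitters' processing notes name Trimmomatic 0.33, HISAT2 2.0.5 and kallisto 0.43.1; the genome build was not given in the sources used here. Of 7534 genes listed by Ensembl ID, 889 could be given a symbol, among them *XIRP1* (ENSSSCG00000034015). Reads shared by similar genes are divided by Kallisto.

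The estimated counts were rounded and tested in R 4.3.3 with edgeR 4.0.16 (TMM scaling, filterByExpr with a minimum count of 10, quasi-likelihood test, Benjamini-Hochberg adjustment over all genes). Genes were called at an adjusted p of 0.05 or less and a fold change of 2 or more. CPM was TMM-scaled, and log2 CPM used a prior count of 2. Exact permutation tests were two-sided. At 3 counts a gene is at 0.0612 to 0.194 CPM. The replicate number is the pig, so scar and border samples pair within animals: their deviations from group means correlated between 0.354 and 0.692 over 14278 genes, and fits across zones were repeated with the pig as a block.

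Alternatives were DESeq2 1.42.0, upper-quartile scaling, no count filter, limma 3.58.1 on log2(TPM + 1) and log2(TPM + 0.1) for genes at 1 TPM or more in 4 samples, sex as covariate, 1 factor of unwanted variation from 5000 control genes, a fit of all 16 samples and leaving out each pig. RUVSeq, used in the study, was not the main test because its control genes are not stated. Tests were checked on simulated data. The 10 genes and the lists were chosen with earlier results of these data known. Genes named beside the 10 were, from each list, those past the unadjusted p and fold change or else the 2 with the largest change in the scar zone, and the 3 most alike to each gene. Genes passing the unadjusted p alone, genes called for a sex difference, and marker genes were named after their values were seen. The study's own comparison values from RNA sequencing were not used.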

Additional observations from a re-analysis of the deposited data

Results flagged for a closer look

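The scar sample of IR pig 11 stood apart for *ANKRD1*, at 5304 CPM against 2739.6 to 3014 CPM in the other 3 IR scar samples, a gap of 0.856 of the group's range on the log2 CPM scale. Among the 40 groups of 4 samples looked at in this way it was the only such value, and chance gives about 1 in 20 groups. Without pig 11 the scar zone log2 fold change of *ANKRD1* was 0.53.

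*RRAD* differed between zones in opposite directions in IR and sham pigs, with scar minus border values all below 0 in the 4 IR pigs and all above 0 in the 4 sham pigs. The IR mean minus the sham mean was -0.75 log2 CPM. The edgeR interaction term for this difference was -0.78 (SE 0.39) in the fit that did not pair zones. Its unadjusted p was 0.0619 and its adjusted p 1.00. With the pig as a block it was -0.74 (SE 0.17), with an unadjusted edgeR p of 0.00160 and an adjusted p of 0.702.

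*TNC* and *PDLIM3* had scar zone IR effects that differed between females and males in the edgeR test of that difference, by 4.69 (males higher) and -2.59 (males lower) on the log2 scale, with 2 pigs per sex and surgery. With a pig left out, *TNC* was called in 5 and *PDLIM3* in 1 of 8 refits. *PDLIM3* also differed in the border zone, at -3.29, with an adjusted p of 0.412 in edgeR and 7.71e-07 in DESeq2.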

How the results depend on the processing

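The limits are 4 pigs a group and low counts for *KLF5*, *ANKRD2* and *KY*. In the scar zone the count of the 7 genes called rose from 0 to 1 with DESeq2 and to 1 at the unadjusted p-value; the unadjusted count of 1 became 2 with limma on log2(TPM + 0.1) and 1 to 2 with a pig left out (*RRAD* added without pig 12 or 14). In the border zone the count was 2 at the unadjusted p-value; that 2 became 0 with each limma setting, 1 with a factor of unwanted variation, 3 with no count filter or in a fit of all 16 samples, and 0 to 5 with a pig left out. The sex difference in the border zone gave 1 at the unadjusted p-value and 0 to 6 with a pig left out, 6 without pig 11. With the pig as a replicate block, 0 of 7 were past the unadjusted p and fold change between zones, as without it. Over all genes, the unadjusted count of 470 in the scar zone ranged from 125 (limma) to 878 (no filter) and from 291 (without pig 11) to 829 (without pig 14), and the border zone count of 109 from 29 to 317 and from 69 (without pig 11) to 202 (without pig 9). The count for the difference between zones, 196, ranged from 36 to 378 and from 88 (without pig 9) to 366 (without pig 2), that between zones of IR pigs, 331, from 88 to 595 and from 156 (without pig 9) to 504 (without pig 2), and that between zones of sham pigs, 15, from 5 to 109 and from 17 to 32. The sex difference gave 195 genes at the adjusted edgeR p in the scar zone, 1 (without pig 12 or 13) to 159 with a pig left out and 703 with DESeq2, and 2 in the border zone, 0 to 6 and 45. At the adjusted p DESeq2 called 52 genes in the scar zone, 2 in the border zone and 24 between zones of IR pigs. Of the values for single genes under alternatives, 518 kept direction and side of the threshold, 31 changed sign, and *ANKRD2* crossed it for scar tissue under DESeq2 (adjusted p 0.000938). The 3 genes picked on that contrast are given no test there. With a pig left out, sign changes were in *CSRP3* in the scar zone (-0.018 to 0.34), *KLF5* (-0.12 to 0.46) and *RRAD* (-0.28 to 0.084) in the border zone, and, for the difference between zones, *TNFRSF12A* (-0.28 to 0.29), *ANKRD1* (-0.20 to 0.18), *ANKRD2* (-0.39 to 0.46), *XIRP2* (-0.55 to 0.31) and *FHL1* (-0.40 to 0.14). The difference between zones also changed sign with limma on log2(TPM + 1), with or without the filter, and on log2(TPM + 0.1), for *TNFRSF12A* (0.41, 0.42), *ANKRD2* (0.31, 0.71), *XIRP2* (0.43, 0.50), *CSRP3* (0.015, 0.015) and *FHL1* (0.13, 0.13), and with the replicate block for *TNFRSF12A* (0.25), *ANKRD2* (0.35) and *XIRP2* (0.28). The cause was not tested.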

Other observations

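Markers of other muscle programs were measured beside the 10 genes. *TNNT1*, the slow skeletal troponin T, had a median of 384 TPM in the IR scar zone and 139 TPM in the sham scar zone, with a log2 fold change of 0.96 (SE 0.36), an unadjusted edgeR p of 0.0240 and an adjusted p of 0.438. Its border zone value was 1.10 (SE 0.62), with an unadjusted edgeR p of 0.109. *TNNI1*, the slow skeletal troponin I that the fetal heart also makes, had medians of 19.9 TPM in the IR border zone and 67.5 TPM in the sham border zone, with a log2 fold change of -1.43 (SE 0.64), an unadjusted edgeR p of 0.0474 and an adjusted p of 0.988. Its scar zone value was -1.19 (SE 0.96), with an unadjusted edgeR p of 0.246. *MYH7* and *ACTA1*, which load raises in rodent hearts, had scar zone log2 fold changes of 0.00 (SE 0.21) and 0.24 (SE 0.29).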
